A study of Mus musculus with 7 samples.

Results

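The genes described here encode the enzymes of heme synthesis. They were chosen by name, as the 8 rows of the deposited table of 24341 genes listed as Alas1, Alas2, Alad, Uros, Urod, Cpox, Ppox and Fech, in the order in which the enzymes act. The samples are spleen B-cell precursors (BCP) of Eμ-Ret hemizygotes, BALB/c mice in which the immunoglobulin heavy chain enhancer drives an oncogenic Ret fusion, and their RNA was sequenced. Young, still healthy mice gave the 4 preleukemic samples, older mice that had become moribund gave the 3 leukemic ones, and all 7 samples carried the transgene, so no sample shows the level without it. Ages in days are not given in the labels. The labels give sorting for both groups. The study's methods describe the sort for preleukemic cells and, for culture experiments, leukemic spleen cells used without enrichment in most cases. For protein measurements the study reports sorted samples of both groups, and its methods for RNA sequencing state no sort.

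Heme is an iron-holding ring that serves as the oxygen-binding group of hemoglobin and as the redox group of cytochromes and catalase. Its synthesis starts in the mitochondrion, where 5-aminolevulinate synthase joins glycine to succinyl-CoA, continues in the cytosol, and returns to the mitochondrion, where ferrochelatase (Fech) inserts iron into protoporphyrin. The first enzyme has separate genes for separate uses. Alas1 is expressed in all tissues and is repressed by heme, while Alas2 is expressed in red cell precursors, is X-linked, and is translated according to iron supply. Not every step of the pathway is represented among the 8 genes.

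Promoter letters are shown first, because erythroid genes of this pathway are known targets of GATA1, a zinc finger factor that recognizes short GATA motifs. RefSeq (GRCm38.p6) gave 10 windows of 250 bases before the start for 7 of the 8 genes. The letters GATA, with A or T before them and A or G after them, were searched on both strands. Of the 7 genes, 3 (Alas2, Cpox and Uros) held a match and 4 (Alas1, Alad, Urod and Ppox) held none, against a share of 29.7% among all 27025 genes with a window. Genes with more windows have more places for a match. By window, 3 of the 10 held a match, against 26.5% of all 32851 windows. A match is a string of letters and was not measured as a bound site. A relation between matches and RNA levels was not tested. The stretches before the starts of Alas2 and Cpox, which held matches, and of Urod, which held none, read as follows, with the matches in capitals. The Alas2 stretch (chrX:150547167-150547374, plus strand) ends before the first GENCODE transcript start in the window, and the others are whole windows at chr16:58669958-58670207 (plus strand) and chr4:116994414-116994663 (minus strand).
Alas2: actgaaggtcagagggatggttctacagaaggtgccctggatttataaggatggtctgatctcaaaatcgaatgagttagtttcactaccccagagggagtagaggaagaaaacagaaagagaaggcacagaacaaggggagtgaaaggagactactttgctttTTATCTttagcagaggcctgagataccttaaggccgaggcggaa
Cpox: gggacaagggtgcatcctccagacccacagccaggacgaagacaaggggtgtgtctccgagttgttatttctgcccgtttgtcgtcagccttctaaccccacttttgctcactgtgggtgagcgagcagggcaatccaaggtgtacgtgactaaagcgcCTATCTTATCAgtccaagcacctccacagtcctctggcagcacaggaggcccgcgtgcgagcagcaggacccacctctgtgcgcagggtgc
Urod: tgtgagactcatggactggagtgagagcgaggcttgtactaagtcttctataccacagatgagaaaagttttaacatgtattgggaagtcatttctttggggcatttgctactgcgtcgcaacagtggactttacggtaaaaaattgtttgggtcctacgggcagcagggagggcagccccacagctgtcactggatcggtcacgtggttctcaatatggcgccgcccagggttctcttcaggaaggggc
In Alas2 the match began 86 bases before the RefSeq start. In Cpox 2 overlapping matches began 91 and 86 bases before it. The matches of Uros lay before the second of its RefSeq starts, at 205 and 68 bases, and not before the first.

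Values are FPKM, that is, fragments scaled to transcript length and library depth, so levels of different genes can be set side by side. Depth, read from the whole steps of low values, lay between 15200000 and 16000000 fragments in leukemic and between 13400000 and 14700000 in preleukemic samples. Fragments were computed from the longest GENCODE transcript of each gene, which is 6571 bases for Fech. The lowest value among the 8 genes, 2.82 FPKM for Alas2 in preleukemic replicate 3, then corresponds to about 71 fragments and a counting error of 11.8%. The smallest error was 0.835% for Fech in leukemic replicate 2, close to 0.873% for Alas2 in that sample. A shorter transcript would mean fewer fragments and a larger error, so this order depends on the transcript taken. These errors cover counting alone. The p-values below set a group difference against the spread between samples or, in the permutation test, against other labelings of the samples.

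Of the 8 genes, 6 were higher in the leukemic samples with an adjusted p under 0.05, namely Alas2, Alad, Urod, Cpox, Ppox and Fech, and 0 were lower (limma on log2(FPKM + 1), adjusted over 10541 genes, those with a summed FPKM of at least 10, with all 8 at an unadjusted p under 0.05). Among all genes tested, 8.47% were called higher and 6.26% lower. In the same 6 genes all 3 leukemic values lay above all 4 preleukemic values, which was the case for 14.9% of all genes tested, and 32.0% were free of overlap in either direction. The median log2 fold change of the 8 genes was 1.37, against -0.02 for all genes tested. The differences ranged from 0.34 for Alas1 to 4.88 for Alas2 on the log2 scale, on which adding 1 to each value understates the change of low genes.

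Markers of other cells moved with this result. The red cell precursor markers, globin genes included, summed to between 5260 and 25800 FPKM in leukemic samples, to 2526 FPKM in preleukemic replicate 1 and to between 192 and 241 FPKM in the other 3 preleukemic samples. All 19 of the 19 such markers tested were called higher in the leukemic samples (limma, adjusted p under 0.05), against 8.47% of all genes tested. The count was 11 without leukemic replicate 3 and 1 without each of preleukemic replicates 2, 3 and 4. Preleukemic means of these markers were as low as 0.788 FPKM, and some passed the filter on summed FPKM only through leukemic values. Low genes of the lists below can do so as well. In bulk RNA, more cells of a type and more RNA per cell cannot be told apart, and the part of red cell precursors in the values of the 8 genes was not tested. The B-cell precursor markers, which check the labelled cell type, were present in all 7 samples, at sums between 4325 and 6871 FPKM in leukemic and between 8351 and 10480 FPKM in preleukemic samples.

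**Figure D1:**
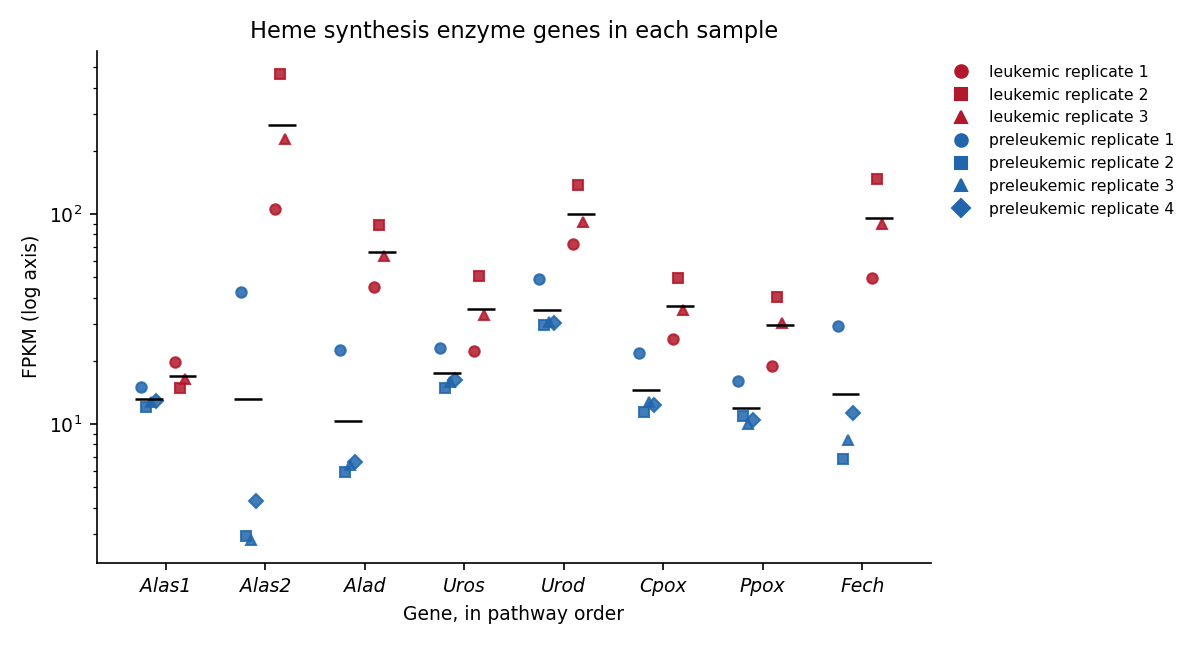
FPKM of the 8 heme synthesis genes in each of the 7 samples, on a log axis, with genes in pathway order. Each point is a sample (3 leukemic, 4 preleukemic) and each bar the mean of a group. The groups do not overlap in 6 genes and overlap in Alas1 and Uros, and preleukemic replicate 1 is the highest preleukemic sample in all 8 genes.

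The erythroid first enzyme, Alas2 (chromosome X, 150547385 to 150570622), stood at 106, 464 and 228 FPKM in leukemic replicates 1 to 3 and 42.4, 2.92, 2.82 and 4.29 FPKM in preleukemic replicates 1 to 4. Every leukemic sample was above every preleukemic sample, and preleukemic replicate 1 stood far above the other preleukemic samples. The means were 266 ± 182 FPKM (SD, n = 3) and 13.1 ± 19.6 FPKM (SD, n = 4), and the log2 fold change was 4.88 (standard error, SE, 0.92, adjusted p = 0.0191 by limma). Without preleukemic replicate 1 it was 5.71.

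The housekeeping first enzyme, Alas1 (chromosome 9, 106233455 to 106247954), stood at 19.6, 14.8 and 16.4 FPKM in leukemic replicates 1 to 3 and 15.02, 12.0, 12.7 and 12.9 FPKM in preleukemic replicates 1 to 4. The groups overlapped, since preleukemic replicate 1 lay above leukemic replicate 2. The means were 16.96 ± 2.45 FPKM (SD, n = 3) and 13.2 ± 1.295 FPKM (SD, n = 4), a log2 fold change of 0.34 (SE 0.12) that did not pass the threshold (limma adjusted p = 0.0948). The 596 genes tested on chromosome 9 had a median log2 fold change of 0.22, whereas the medians of the chromosomes that carry the other 7 genes lay between -0.08 and -0.04. The part of this shift in the value of Alas1 was not tested.

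Set against each other within a sample, the Alas genes changed places. Alas2 made up 84.4%, 96.9% and 93.3% of the summed Alas1 and Alas2 FPKM in leukemic replicates 1 to 3, and 73.9%, 19.5%, 18.2% and 25.0% in preleukemic replicates 1 to 4. Alas2 therefore lay above Alas1 in all 3 leukemic samples and in preleukemic replicate 1, and below it in the other 3 preleukemic samples. The log2 ratio of Alas2 to Alas1, with 1 FPKM added to each, averaged 3.66 ± 1.25 (SD, n = 3) over leukemic samples and -0.88 ± 1.56 (SD, n = 4) over the preleukemic ones. The difference of 4.54 did not pass 0.05 (exact permutation test over the 35 labelings, two-sided, p = 0.0571, where the smallest possible p is 0.0286), although no leukemic ratio overlapped a preleukemic one.

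**Figure D2:**
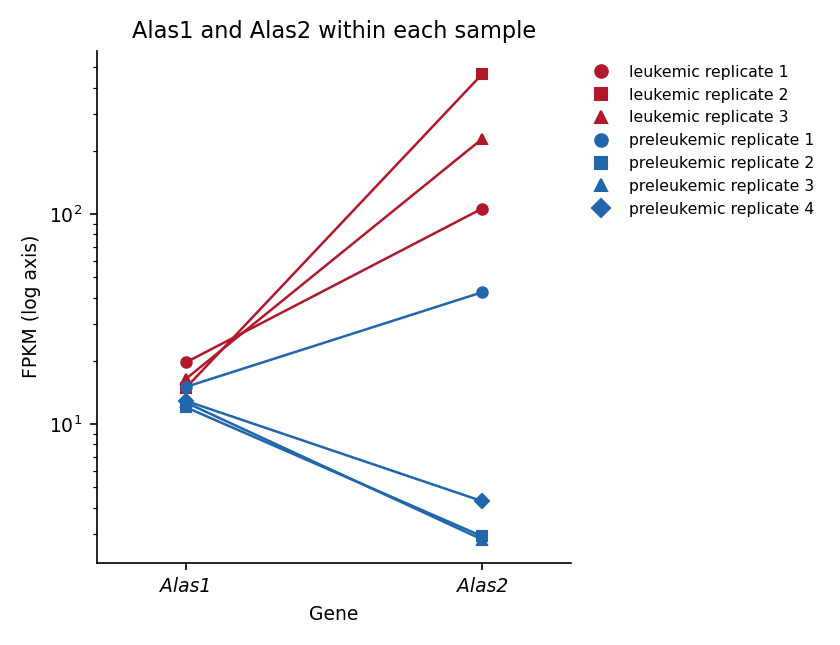
FPKM of Alas1 and Alas2 on a log axis, with a line for each of the 7 samples. Alas1 spans 12.0 to 19.6 FPKM over all samples, while Alas2 spans 2.82 to 464 FPKM, with lines that climb in the 3 leukemic samples and in preleukemic replicate 1 and fall in the other 3 preleukemic samples.

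In the cytosolic steps, Alad (chromosome 4, 62505984 to 62520063), whose product condenses aminolevulinate to porphobilinogen, measured 45.2, 89.1 and 63.2 FPKM in leukemic replicates 1 to 3. In preleukemic replicates 1 to 4 it had 22.5, 5.94, 6.39 and 6.57 FPKM. The groups did not overlap, and preleukemic replicate 1 was again the highest of its group. The means of 65.8 ± 22.1 (SD, n = 3) and 10.4 ± 8.12 FPKM (SD, n = 4) gave a log2 fold change of 2.72 (SE 0.46, adjusted p = 0.0164 by limma).

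Uros (chromosome 7, 133686355 to 133709295), the gene of uroporphyrinogen III synthase, which closes the ring, measured 22.4, 50.8 and 33.2 FPKM in leukemic replicates 1 to 3 and 23.1, 14.9, 15.9 and 16.1 FPKM in preleukemic replicates 1 to 4. The groups overlapped, because preleukemic replicate 1 lay above leukemic replicate 1. The log2 fold change of 0.92 (SE 0.27) did not pass (limma adjusted p = 0.0608), and without leukemic replicate 1 it was 1.2 and passed (limma adjusted p = 0.0205).

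Urod (chromosome 4, 116990217 to 116994375), which encodes uroporphyrinogen decarboxylase, gave 71.9, 136.8 and 91.9 FPKM in leukemic replicates 1 to 3 and 49.2, 29.6, 30.8 and 30.2 FPKM in preleukemic replicates 1 to 4. It was the most abundant of the 8 in every preleukemic sample. Its means were 100.2 ± 33.3 (SD, n = 3) and 34.9 ± 9.50 FPKM (SD, n = 4), a log2 fold change of 1.48 (SE 0.26, adjusted p = 0.0167 by limma).

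The next enzymes act at and in the mitochondrion. Cpox (chromosome 16, 58670208 to 58680389), the gene of coproporphyrinogen oxidase, gave 25.3, 49.5 and 34.8 FPKM in leukemic and 21.8, 11.4, 12.8 and 12.3 FPKM in preleukemic samples. Ppox (chromosome 1, 171276992 to 171281186), the gene of protoporphyrinogen oxidase, gave 18.8, 40.3 and 30.1 FPKM in leukemic and 16.0, 10.9, 10.1 and 10.5 FPKM in preleukemic samples. In both genes leukemic replicate 1, the lowest of its group, lay little above preleukemic replicate 1. Their log2 fold changes were close, at 1.27 (SE 0.28, adjusted p = 0.0278 by limma) for Cpox and 1.22 (SE 0.26, adjusted p = 0.0266 by limma) for Ppox.

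Fech (chromosome 18, 64456550 to 64489066), which encodes the last enzyme, gave 49.5, 146 and 90.1 FPKM in leukemic replicates 1 to 3 and 29.2, 6.83, 8.37 and 11.2 FPKM in preleukemic replicates 1 to 4. No leukemic value overlapped a preleukemic one. The means were 95.3 ± 48.6 (SD, n = 3) and 13.9 ± 10.4 FPKM (SD, n = 4), and the log2 fold change of 2.77 (SE 0.52, adjusted p = 0.0191 by limma) was close to that of Alad.

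The calls depended on single preleukemic libraries, while the directions did not. Without preleukemic replicate 2, 3 or 4, in that order, 1 (Alad), 0 and 0 of the 8 genes had a limma adjusted p under 0.05, with 7 at an unadjusted p under 0.05 each time. Calls over all genes tested fell from 1553 to 443, 271 and 149 in the same fits. Without leukemic replicate 3, 4 genes passed, and without leukemic replicate 1, 7 did. Without preleukemic replicate 1, the library with the most red cell RNA of its group, the same 6 genes passed, with adjusted p-values between 0.00409 and 0.031. All 8 log2 fold changes stayed above 0 in each of these fits.

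The order of levels also differed between the groups. By mean FPKM the leukemic order was Alas2, Urod, Fech, Alad, Cpox, Uros, Ppox and Alas1. Neighbours that kept their order in all 3 leukemic samples were Alas2 over Urod, Fech over Alad, Alad over Cpox and Uros over Ppox, whereas Urod and Fech, Cpox and Uros, and Ppox and Alas1 changed places in 1 sample each. In preleukemic samples the mean order was Urod, Uros, Cpox, Fech, Alas1, Alas2, Ppox and Alad, and the order held in all 4 samples only for Urod over Uros and Uros over Cpox. Alas2 ranked first of the 8 in each leukemic sample, second in preleukemic replicate 1 and last in preleukemic replicates 2 to 4. Summed over the 8 genes, FPKM came to 359, 992 and 588 in leukemic replicates 1 to 3 and to 219, 94.5, 99.8 and 104 in preleukemic replicates 1 to 4.

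Samples were ordered alike by most of these genes. Among leukemic samples, replicate 2 was highest, replicate 3 second and replicate 1 lowest in 7 of the 8 genes, and Alas1 had the reverse order. Among the genes whose log2(FPKM + 1) followed Alas2 most closely over the 7 samples were Hbb-b1, Ces2g, Btnl10 and Ank1, with Pearson's r between 0.998 and 0.999 and Spearman's rho between 0.964 and 1.0. Hbb-b1 encodes a beta globin chain and Ank1 the ankyrin of the red cell membrane. These coefficients describe likeness over samples that include both groups and share the same libraries, and carry no test. With the group means subtracted, the closest genes included Hbb-b1, Trim10, Ces2g and Ank1, with r between 0.996 and 0.998. Of the heme synthesis genes, Alad had r = 0.995 on this scale, Fech 0.972, Cpox 0.946, Urod 0.925, Ppox 0.861 and Uros 0.836, while Alas1 had 0.191.

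The genes closest to Alas1 over the 7 samples were Wdr90, Gm10094, Rpl37rt, Ung and Fanca (r between 0.983 and 0.992). With group means subtracted they were Tmem107, Mms19, Ugt1a7c, Tbx19 and Haus5 (r between 0.982 and 0.992), so that no gene stood in both sets of 5. Some of the names, such as Rpl37rt, belong to copies of other genes, whose fragments may be shared between copies.

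Hbb-b1, whose FPKM ranged from 129 in preleukemic replicate 2 to 17338 in leukemic replicate 2, was the gene that followed Alas2 most closely (r = 0.999). A narrow range of Alas2 relative to it restates that likeness and is not a separate result. Alas2 came to 3.23%, 2.68% and 2.83% of the Hbb-b1 level in leukemic replicates 1 to 3 and to 2.69%, 2.26%, 1.97% and 2.55% in preleukemic replicates 1 to 4. Fech ranged from 0.843% to 6.67%, Urod from 0.789% to 22.9% and Alas1 from 0.0856% to 9.33% of Hbb-b1. Hbb-b1 has the same listed position as Hbb-bs, which is at the floor of 0.01 in all samples, so its value may hold fragments of both names.

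**Figure D3:**
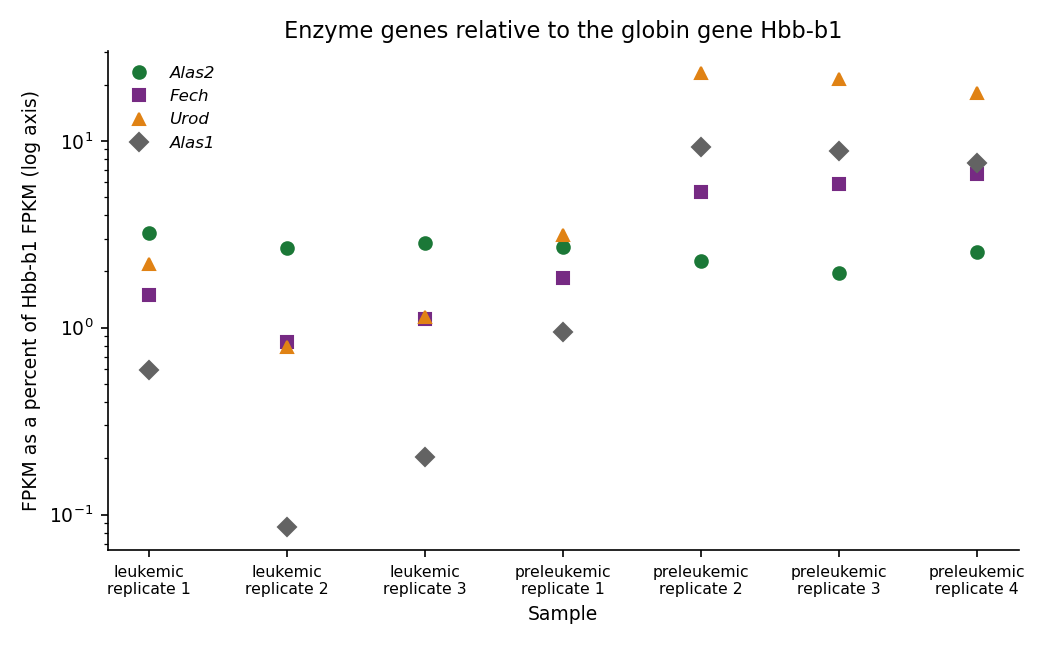
Levels of Alas2, Fech, Urod and Alas1 in each of the 7 samples as a percent of the FPKM of the globin gene Hbb-b1, on a log axis. Alas2 stays between 1.97% and 3.23%, while Urod spans 0.789% to 22.9% and Alas1 spans 0.0856% to 9.33%, with the highest shares in preleukemic replicates 2 to 4. Hbb-b1 is the gene that followed Alas2 most closely, so the narrow range of Alas2 restates that likeness.

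The genes that supply and surround the pathway were read from 7 lists. Of the 15 tested genes for transport of heme, porphyrins and their precursors and for mitochondrial partners of the enzymes, 7 rose and 0 fell (limma, adjusted p under 0.05), against 14.7% of all genes tested called either way, and the list's median log2 fold change was 0.66. Abcb10, a transporter of the inner mitochondrial membrane, had 17.3, 51.8 and 33.2 FPKM in leukemic and 9.93, 2.67, 3.25 and 3.05 FPKM in preleukemic samples, with a log2 fold change of 2.64. Slc25a37 (mitoferrin 1), which brings iron into erythroid mitochondria, had 141 ± 67.0 (SD, n = 3) and 39.8 ± 14.04 FPKM (SD, n = 4), a log2 fold change of 1.73. The glycine carrier Slc25a38 and the porphyrin transporter Abcb6 rose by 1.06 and 1.23, and Slc25a39, Tmem14c and Slc48a1 rose by 0.91, 0.67 and 0.66. Tspo had 0.42 and did not pass (limma adjusted p = 0.256). The widely expressed paralog of Slc25a37, Slc25a28, named after its values were seen, had 17.9 ± 2.34 and 18.2 ± 1.83 FPKM, which is -0.02 on the log2 scale (limma adjusted p = 0.905). The difference between these paralogs was not tested. Calls in this list numbered 4 without leukemic replicate 2, 3 without leukemic replicate 3 and 2 without each of preleukemic replicates 2, 3 and 4.

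The substrates of the first enzyme come from mitochondrial metabolism. Of the 8 genes for glycine and succinyl-CoA supply, 1 rose (8.47% of all genes tested did), Suclg2, a subunit of succinyl-CoA synthetase (log2 fold change 0.38, limma adjusted p = 0.0496), and 0 fell. The most abundant of the list, Shmt2, Suclg1 and Dlst, had log2 fold changes of 0.45, 0.18 and 0.27 and did not pass, and the median was 0.23. The call of Suclg2 was lost with any 1 of the 7 samples left out. Of the 14 genes for iron uptake and storage, 6 rose and 0 fell, against the same 8.47% of all genes called higher and 6.26% called lower, with a median of 0.36. Tfrc, the transferrin receptor, had 68.5, 168 and 145 FPKM in leukemic and 59.2, 51.2, 39.3 and 43.1 FPKM in preleukemic samples, with no overlap and a log2 fold change of 1.3. Fth1, the ferritin heavy chain, went from 460 ± 92.1 FPKM (SD, n = 4) to 945 ± 71.9 (SD, n = 3), a log2 fold change of 1.06. Slc40a1 (ferroportin, the iron exporter of macrophages), Tfr2, Hfe and Ncoa4 rose by 1.95, 1.2, 1.13 and 0.49, from preleukemic means of at most 8.41 FPKM. The ferritin light chain Ftl1 (0.36) and the iron chaperone gene Pcbp1 (0.02) did not pass. The value of Pcbp1 changes sign with the scaling, to -0.14 with FPKM scaled to the same sum and to -0.12 with quantile normalization. The 6 calls of the iron list became 3, 1, 1 and 0 without preleukemic replicates 1 to 4 in turn.

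Iron-sulfur clusters, which Fech holds as a cofactor, are built from the same mitochondrial iron. Of 10 assembly genes, 4 rose (8.47% of all genes tested) and 0 fell (6.26%), with a median of 0.31. These were Glrx5 (log2 fold change 1.08), Isca1 (1.07), the cysteine desulfurase Nfs1 (0.57) and Hscb (0.34). The abundant chaperone Hspa9 (0.26) and Bola3 (0.65) did not pass. The 4 calls became 2 without leukemic replicate 3 and 1, 0 and 0 without preleukemic replicates 2, 3 and 4.

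In heme breakdown, 2 of 4 genes rose (8.47% of all genes tested) and 0 fell (6.26%), with a median of 1.15. Hmox1, the inducible heme oxygenase, had 9.78, 34.2 and 12.5 FPKM in leukemic and 3.55, 5.33, 3.01 and 3.10 FPKM in preleukemic samples (log2 fold change 1.89). Blvrb, a biliverdin reductase abundant in red cells, had 74.4, 192 and 138 FPKM in leukemic and 42.0, 11.0, 16.1 and 16.6 FPKM in preleukemic samples (log2 fold change 2.67). Both sets were free of overlap. The constitutive oxygenase Hmox2 (-0.32, limma adjusted p = 0.102) and Blvra (0.42) did not pass. The 2 calls became 1, 1, 0 and 0 without preleukemic replicates 1 to 4 in turn.

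Regulators listed around heme, not all of which sense it themselves, went both ways. Of 10, 2 rose (8.47% of all genes tested) and 2 fell (6.26%), with a median of -0.18. Bach1, a repressor released from DNA by heme, had 12.4, 14.8 and 15.2 FPKM in leukemic and 18.4, 21.5, 19.8 and 21.0 FPKM in preleukemic samples, with a log2 fold change of -0.49 (limma adjusted p = 0.0232), and Nr1d2, a heme-binding nuclear receptor, fell by 0.75. Eif2ak1, the heme-regulated kinase that slows translation when heme is short, rose by 0.88, and Mafg, a small Maf partner of Bach1, rose by 0.99. Nfe2l2 (-0.05) and Keap1 (0.23) did not pass. The 4 calls became 1 without leukemic replicate 3 and 2, 0, 0 and 0 without preleukemic replicates 1 to 4.

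Of 8 transcription factor genes of the erythroid program, 7 rose (8.47% of all genes tested) and 0 fell (6.26%), with a median of 2.67. Gata1 had 14.1, 40.0 and 22.3 FPKM in leukemic and 7.09, 0.524, 0.383 and 0.0863 FPKM in preleukemic samples, with a log2 fold change of 3.55 (limma adjusted p = 0.0224). Klf1 and Tal1 rose by 4.02 and 3.55, Gfi1b, Nfe2, Lmo2 and Zfpm1 by 2.70, 2.64, 1.97 and 1.80, and the adaptor Ldb1 had -0.04. As in the enzymes, preleukemic replicate 1 was above the other preleukemic samples in Gata1. The 7 calls became 2, 1 and 2 without preleukemic replicates 2, 3 and 4.

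**Figure D4:**
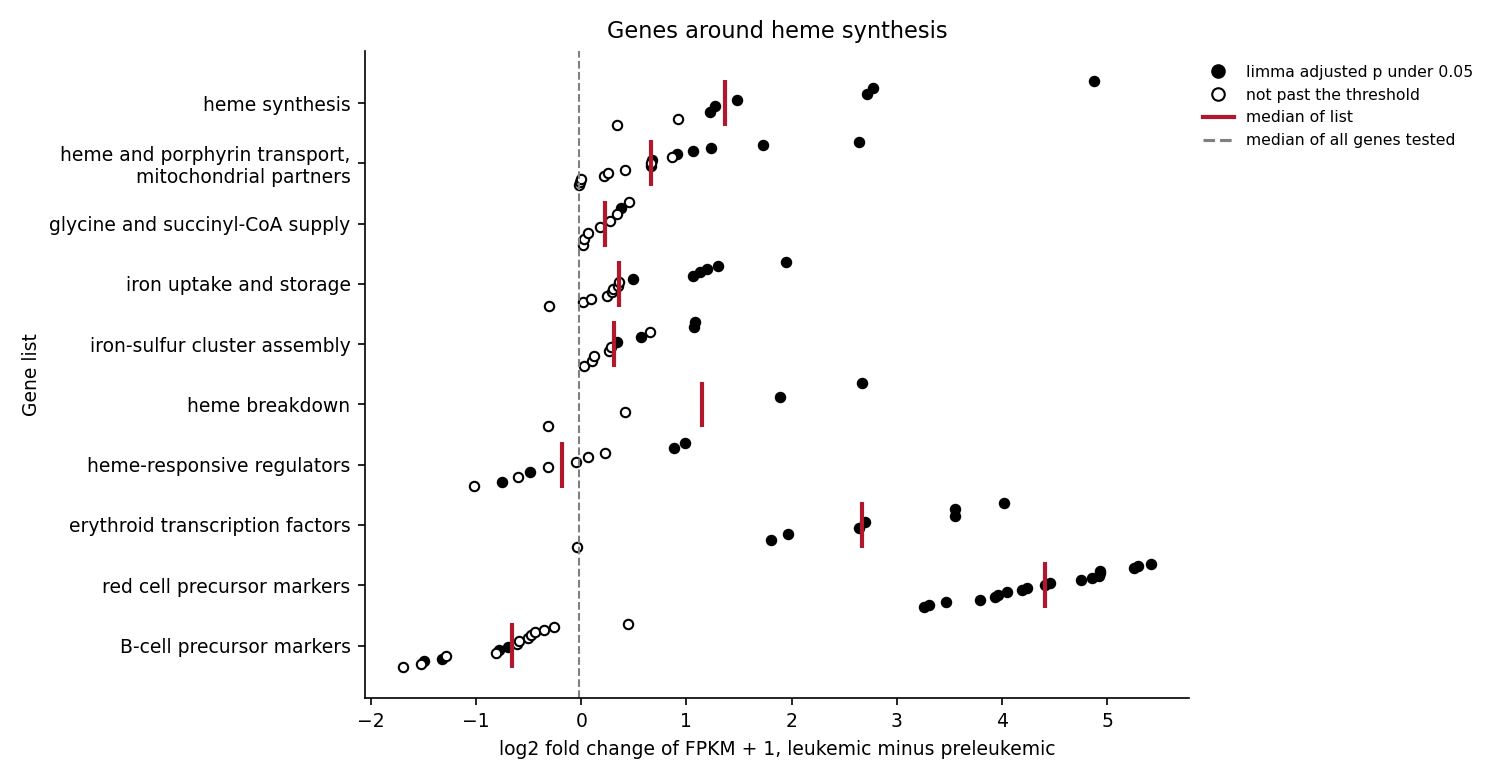
Log2 fold change of FPKM + 1, leukemic minus preleukemic, for each tested gene of the heme synthesis list, the 7 lists around it and 2 marker lists. Filled points passed an adjusted p of 0.05 (limma), open points did not, red bars are list medians and the dashed line is the median of all genes tested (-0.02). The heme synthesis median of 1.37 lies between that of the transport list (0.66) and that of the red cell precursor markers (4.41).

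Other marker lists are given as values, since their part in these differences was not tested. Of the red cell precursor markers, the 3 most abundant, Hbb-b1, Hba-a1 and Hbb-bt, had log2 fold changes of 4.86, 4.92 and 4.46, and the list's median was 4.41. Of 10 macrophage markers tested, 7 were called higher, against 8.47% of all genes tested, the share to set beside the neutrophil and platelet counts as well. The macrophage markers summed to 161 to 367 FPKM in leukemic and 36.2 to 87.2 FPKM in preleukemic samples. Of these sums Lyz2 alone held 115, 124 and 163 FPKM in leukemic replicates 1 to 3 and 21.6 to 70.1 FPKM in preleukemic samples. The macrophage markers were led by Lyz2, C1qa and C1qc, with log2 fold changes between 1.80 and 2.29, of which C1qc did not pass. The filter on summed FPKM left 10 of 15 listed macrophage markers and 4 of 10 platelet markers. Low genes can pass this filter through leukemic values alone. Neutrophil markers, 6 of 12 called higher, summed to 1418 to 1753 and 148.5 to 861 FPKM, led by S100a8, S100a9 and Ngp (2.16, 2.13 and 1.90, with S100a8 alone called). Platelet markers, 4 of 4 called higher, stayed low, at 15.3 to 58.0 and 1.74 to 3.84 FPKM in sum, and Pf4, Ppbp and Gp9 rose by 2.99, 2.87 and 1.63. The neutrophil calls became 2, 1 and 1 without leukemic replicates 1 to 3, 10 without preleukemic replicate 1 and 0 without each of the other preleukemic samples, where 1 macrophage marker was called each time and platelet markers numbered 2, 1 and 1. Macrophage calls were also 3 without leukemic replicate 3 or preleukemic replicate 1.

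Of 8 T and NK cell markers, 0 were called by limma, against 14.7% of all genes tested called either way. Led by Lck, Gzma and Nkg7 (0.23, 1.82 and 1.51), they summed to 25.6 to 82.7 and 27.1 to 34.1 FPKM, a range that overlapped. The log2 fold changes of the 8 went both ways, from -1.14 to 1.82, with 6 above 0. Of these 8, 3 had an unadjusted p under 0.05 by limma, with log2 fold changes of 1.51, 0.41 and -1.14. Calls in either direction numbered 2 with FPKM scaled to the same sum, 1 with quantile normalization and 1 without the intensity trend. They numbered 2 without leukemic replicate 1 and 1 without leukemic replicate 3. Of 5 plasma cell markers, 1, Jchain (2.37), was called higher (8.47% of all genes tested), and Irf4 and Xbp1 had -0.31 and 0.05. Of 16 B-cell precursor markers 4 fell (6.26% of all genes tested) and 0 rose (8.47%), with a median of -0.66. With FPKM scaled to the same sum 12 were called, and with quantile normalization 8. Of the most abundant, Igll1 fell by 1.32, while Vpreb3 (-0.81) and Cd79a (-0.48) did not pass, and the 4 calls became 7 and 8 without leukemic replicates 1 and 2, and 2, 1 and 1 without preleukemic replicates 2, 3 and 4. No marker of these lists stood at the floor of 0.01 in all 7 samples apart from Hbb-bs.

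Across the whole table, 893 genes were called higher and 660 lower (limma), and FPKM summed to between 507273 and 539771 in leukemic and between 447998 and 471414 in preleukemic samples. The split depends on the scaling. With FPKM scaled to the same sum, 683 were called higher and 2236 lower and the median of all genes tested moved from -0.02 to -0.17, and with quantile normalization 754 were higher and 907 lower. Under both scalings the same 6 heme synthesis genes were called higher, and Alas1 had 0.18 with FPKM scaled to the same sum.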

How the data were processed

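BCP from Eμ-Ret mice (4 preleukemic, 3 with leukemia) were analysed by RNA-seq. The authors deposited 1 FPKM value per gene and sample for 24341 genes, with a floor of 0.01. The submitters' processing notes name STAR 2.5.0b, bedtools 2.17.0, Cufflinks 2.2.1, Bowtie and DESeq2 and the build mm10, without saying which made this table. Columns were matched to samples by the sample number in the labels, and positions, listed from 0, are given from 1 on GRCm38.

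Since FPKM values are not counts, the study's count model was replaced by the trended eBayes test of limma 3.58.1 (R 4.3.3) on log2(FPKM + 1), two-sided, without covariates, for the 10541 genes with a sum of at least 10. P-values were adjusted by the method of Benjamini and Hochberg, and a gene was called at an adjusted p under 0.05. A single ratio was tested by exact permutation. Python 3.11.15, numpy 2.4.6, pandas 2.3.3, scipy 1.17.1 and matplotlib 3.10.9 were used. Scripts were tested on simulated data.

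Depth was scanned from values of genes with 1 GENCODE transcript of over 1500 bases, less 200 bases for the fragment. At the depths given, between 74.5% and 77.6% of low values were whole within 0.1, against a median of 11.3% to 13.1% over all depths tried. At most 1 value above the floor was equal in any pair of libraries.

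The 8 genes and all lists were chosen with earlier results of these data known. Of the list genes, 3 were matched by a RefSeq synonym and 4 were not found. Named are the 8 genes, the 3 genes of highest mean FPKM in each list, called genes of lists that are not markers, and, from the 5 genes most like each of Alas1 and Alas2, those reported. Some genes that these rules choose are not reported here. The table holds 27 gene names turned into dates, kept as listed. Alternatives were pseudocounts of 0.1 and 0.01, no filter and a sum of at least 70, scaling to the same sum, quantile normalization, no intensity trend, the replicate number as a block, and each sample left out in turn.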

Additional observations from a re-analysis of the deposited data

Results flagged for a closer look

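Preleukemic replicate 1 stood apart from the other 3 preleukemic samples in several of these genes. On the log2(FPKM + 1) scale, the gap between it and the next sample, divided by the range of the 4 samples, was above Dixon's 95% critical value for 4 samples in 4 of the 8 genes, at 0.866 for Alas2, 0.929 for Alad, 0.924 for Urod and 0.835 for Ppox. The log2 ratio of Alas2 to Alas1 was above it likewise, at 0.864. In all of them preleukemic replicate 1 was the highest sample. By chance about 1 in 20 groups passes this value, and 9 were examined here, which share the same 4 libraries and are not independent. The red cell precursor markers of this library summed to 2526 FPKM, against at most 241 FPKM in the other preleukemic samples, and their part in these values was not tested.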

How the results depend on the processing

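The log2 fold changes of the 8 genes kept their direction under all 15 alternatives. Of the 120 values, 88 stayed on their side of the threshold, 31 lost the call and 1 gained it. The 6 calls held under both pseudocounts, the filter at a sum of 70, both scalings and without the intensity trend. Without a filter 0 of the 8 passed (limma adjusted p from 0.0584 to 0.181, all 8 at an unadjusted p under 0.05), where all 24341 genes enter the adjustment. With samples left out in turn between 0 and 7 passed. Over all genes, 1553 were called, against 706 without a filter, 951 with a sum of at least 70, 2919 with FPKM scaled to the same sum, and between 149 and 1620 with samples left out. The difference in the log2 ratio of Alas2 to Alas1 was 4.78 and 4.81 with the smaller pseudocounts (exact permutation p = 0.0571) and lay between 3.93 and 5.31 with samples left out, where the smallest possible p is 0.0667 or 0.1.

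Replicate numbers are shared by the groups, but same-numbered samples did not deviate together (correlations of 0.03, 0.05 and -0.09 for numbers 1 to 3), so they are not treated as pairs. With the replicate number as a block, 0 of the 10541 genes and 0 of the 8 were called by limma (2429 and 7 at an unadjusted p under 0.05), and the log2 fold change of Alas2 was 4.70.

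Of the 65 other genes named from the lists, 245 of 963 values lost a call, 20 gained one and 10 changed sign, all 10 in genes without a call. These were Pcbp1 (-0.14 scaled to the same sum, -0.12 with quantile normalization, -0.02 with the block and -0.02 without preleukemic replicate 4), Nfe2l2 (0.01 without leukemic replicate 3), Ldb1 (between -0.17 and 0.06 with samples left out, above 0 without leukemic replicate 1, and 0.01 without preleukemic replicate 2), Lck (between -0.03, without leukemic replicate 3, and 0.35 with samples left out) and Xbp1 (-0.11 scaled to the same sum, and between -0.05, without leukemic replicate 3, and 0.18 with samples left out). With the block 0 genes of any list were called. Without a filter 1 erythroid transcription factor, 2 transport genes, 1 iron-sulfur gene and 1 red cell precursor marker were called. So were 3 platelet, 2 macrophage, 2 B-cell precursor and 1 plasma cell markers. Without preleukemic replicates 2, 3 and 4, between 1 and 2 of the erythroid transcription factors, 2 of the transport genes and 1 of the red cell precursor markers passed, and the cause was not tested.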
